A study of Mus musculus with 6 samples.

Results

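The TNF ligand and receptor superfamilies were examined in the gastrocnemius, a mixed calf muscle, of young and aged mice. Members were the genes whose symbol starts with Tnfsf or Tnfrsf followed by a number, together with Tnf, Lta, Ltb, Ltbr, Fas, Fasl, Cd40, Cd27, Eda, Edar, Eda2r and Relt. This gave 42 genes (15 ligands and 27 receptors), read by 54 probes, among the 36717 genes and unnamed probes of the array, of which 21368 had a gene symbol. The young group was 3 male C57BL/6J mice of 13 weeks and the aged group 3 male C57BL/6J mice of 26 months, with no treatment or genetic change named in either. Total RNA of each muscle was hybridised to 1 array with a single dye. Whole muscle was used, so each value sums over fibres, vessels, nerve, connective tissue and blood cells.

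Ligands of the TNF superfamily are mostly membrane proteins that act as trimers and can be shed from the cell. Their receptors fall into 3 kinds. Receptors with a death domain (Fas, Tnfrsf1a, Tnfrsf10b) can recruit FADD or TRADD and start caspase activation. Receptors without one bind TRAF adaptors and feed NF-kB and MAP kinase signalling. Decoy receptors bind a ligand without passing on a death signal. In skeletal muscle the family is best known for TNF, a cytokine of inflammatory wasting, and for the pair TWEAK (Tnfsf12) and Fn14 (Tnfrsf12a). The receptor Fn14 has been described as low in resting innervated muscle and induced by injury and denervation.

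All values below are log2 signals relative to the 75th percentile of the array, so that 0 is the level of that percentile, and a change is the aged mean minus the young mean. Between 48.7% and 53.8% of probes were well above background on each array, none was saturated, and the 75th percentile lay between 243 and 368 signal units. The 10 muscle fibre genes used to check the tissue (myosin heavy chains, muscle creatine kinase, actin and others) were above background on all 6 arrays, with Tnnt3, a fast troponin, the brightest at 9.79 in young and 9.49 in aged mice. A gene was tested where 3 or more of the 6 arrays, of whichever age, showed a probe well above background. That left 20900 genes, of which 52 had an adjusted p under 0.05 in limma (0.249%), 40 higher (0.191%) and 12 lower (0.0574%) in aged mice. The p-values measure the spread between mice of an age. An exact permutation test of 3 against 3 mice cannot go below 0.1, so single genes rest on the limma fit over all genes.

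Of the 42 members, 29 could be tested and 13 could not. Both members past the threshold, Tnfrsf22 and Tnfrsf23, are decoy receptors, and both were higher in aged mice by about the same amount. No member was lower past the threshold. At an unadjusted p under 0.05 there were 4 members higher and 3 lower, where 5.72% and 9.02% of all genes were. The groups did not overlap in 5 members higher and 3 lower, where 7.38% and 14.9% of all genes did not (22.3% in all), so that genes of either kind were common in the whole table. The means of 15 members were higher and of 14 lower, with a median change of 0.03 against -0.08 over all genes tested, and of -0.10 for the 27 members other than Tnfrsf22 and Tnfrsf23. By role, the median was -0.32 over 8 ligands, 0.09 over 5 death domain receptors, 0.36 over 13 TRAF binding receptors and 1.63 over 3 decoy receptors. These counts and medians describe the members, and no test was made over them.

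**Figure D1:**
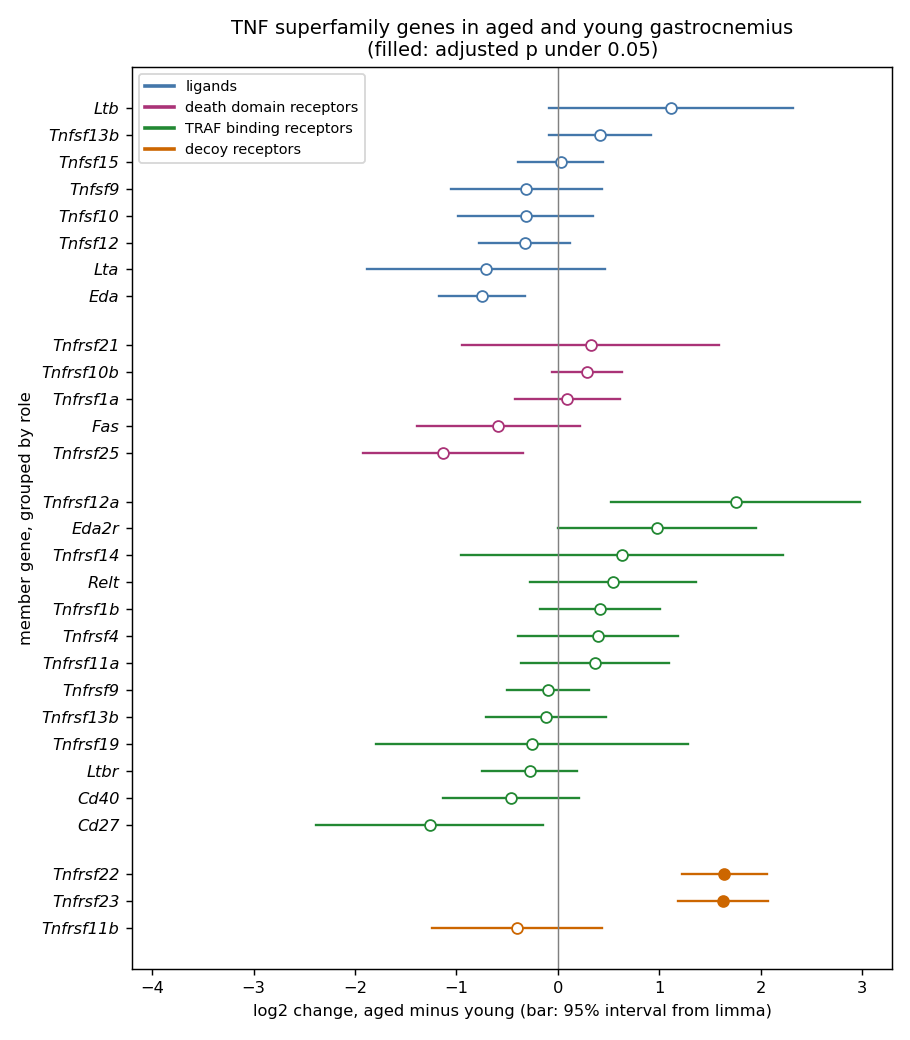
Change of each tested member between aged and young gastrocnemius (x axis, log2, aged minus young; 3 mice per age), grouped by role on the y axis. Points are limma estimates and bars their 95% intervals; the filled points of Tnfrsf22 and Tnfrsf23, at 1.64 and 1.63, are the members with an adjusted p under 0.05.

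Tnfrsf22 and Tnfrsf23 encode mouse decoy receptors for TRAIL (Tnfsf10), which carry the ligand-binding repeats but no death domain. Tnfrsf22 (probe A_52_P323852) read -1.05, -1.06 and -0.66 in the young animals (mice 1 to 3) and 0.79, 0.66 and 0.72 in the aged. Every aged mouse was above every young mouse, and the aged mice lay closer together than the young (SD 0.06 against 0.23). The change was 1.64 with a standard error of 0.18, a 3.12-fold higher signal, with an adjusted p of 0.0273 in limma.

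Tnfrsf23 (probe A_55_P2071132) stood at 0.06, 0.51 and 0.09 in young mice and at 1.72, 1.96 and 1.87 in aged mice. Here too the groups were far apart, since the gap between them exceeded 1 log2 unit. The change was 1.63 with a standard error of 0.19 (3.09-fold, limma adjusted p = 0.0345). Both receptors kept this direction and a change of at least 1.21 in all 16 other settings tried. Their calls were lost in each fit without young mouse 1, 2 or 3 or without aged mouse 2 or 3, where adjusted p was 0.0555 to 0.128 for Tnfrsf22 and 0.101 to 0.142 for Tnfrsf23. Leaving out aged mouse 1 kept both calls.

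Each receptor had a second, dimmer probe. The second probe of Tnfrsf22 was higher by 1.05, with values of -4.66, -4.17 and -3.22 in young mice, where only 1 array was above background, and -3.47, -2.85 and -2.58 in aged mice, so that the groups overlapped. That of Tnfrsf23 was higher by 1.34 with no overlap between the groups. Neither had an adjusted p under 0.05 over all probes (0.328 and 0.0648). The receptors are close paralogs and the files give no probe sequences. Whether a probe of one also reads the other was not tested, so they are not counted as independent here.

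The promoter of Tnfrsf23 is shown because its gene was called, with those of Tnfrsf12a and Eda2r, the other receptors that were higher at an unadjusted p under 0.05. They are the 250 bases before each start, 5′ to 3′, from RefSeq on GRCm38.p6. Capitals mark a match to 1 of 4 motifs searched on both strands: the myogenic E-box CAGCTG, the AP-1 site TGANTCA, the RUNX site TGTGGT and the NF-kB site.
Tnfrsf23 (chr7:143685876-143686125, minus strand): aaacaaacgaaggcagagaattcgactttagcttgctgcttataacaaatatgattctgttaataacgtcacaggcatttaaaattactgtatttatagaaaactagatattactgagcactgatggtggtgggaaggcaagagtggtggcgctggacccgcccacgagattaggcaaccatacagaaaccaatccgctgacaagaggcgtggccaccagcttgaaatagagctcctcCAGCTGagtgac
Tnfrsf12a (chr17:23677450-23677699, minus strand): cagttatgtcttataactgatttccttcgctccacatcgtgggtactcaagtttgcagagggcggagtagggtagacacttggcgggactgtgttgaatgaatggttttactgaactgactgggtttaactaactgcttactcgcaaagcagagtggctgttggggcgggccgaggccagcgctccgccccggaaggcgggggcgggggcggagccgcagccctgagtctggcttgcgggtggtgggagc
Eda2r (chrX:97377210-97377459, minus strand): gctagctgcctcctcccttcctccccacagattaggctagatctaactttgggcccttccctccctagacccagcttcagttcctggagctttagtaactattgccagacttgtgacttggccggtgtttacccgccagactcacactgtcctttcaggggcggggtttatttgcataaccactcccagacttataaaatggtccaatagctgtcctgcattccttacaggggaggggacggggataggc
The window of Tnfrsf23 holds 1 E-box close to the start, and the windows of Tnfrsf12a and Eda2r hold none of the 4 motifs in these letters. Over 32851 promoter windows of this length, 13.0% held the E-box, 6.75% the AP-1 site, 14% the RUNX site and 7.25% the NF-kB site. Among the 38 windows of 34 members they were found in 6, 5, 2 and 4. None of the motifs overlaps another in the windows shown. A match describes letters only, and Tnfrsf22 is named here without a sequence.

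Tnfrsf22 and Tnfrsf23 lie next to each other on mouse chromosome 7, with Tnfrsf26, a further receptor of the cluster, on the other side of Tnfrsf22. Tnfrsf26 was above background on no array. This order, taken from RefSeq, made it possible to set the pair beside the 6 protein-coding genes on each side of the cluster, a choice made after their values were seen. On one side, Cars, the cysteinyl-tRNA synthetase, had a change of -0.30 without overlap and Nap1l4, a histone chaperone, of -0.13. On the other, Osbpl5, a lipid transfer protein, read 3.59, 3.41 and 3.85 in young and 3.92, 4.28 and 4.11 in aged mice (0.49, adjusted p = 0.312 in limma). Mrgpre, an orphan G protein-coupled receptor, read -3.38, -3.64 and -3.75 in young and -3.14, -2.87 and -2.64 in aged mice (0.70, adjusted p = 0.209). The ages did not overlap for either gene, but neither passed the threshold. Cdkn1c, an imprinted cell cycle inhibitor farther out on the side of Cars, had a change of -0.63 with overlapping groups. The other 5 tested neighbours lay between -0.28 and 0.46. Of the neighbours, Phlda2 was above background on no array and Acte1 had no probe under that name.

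**Figure D2:**
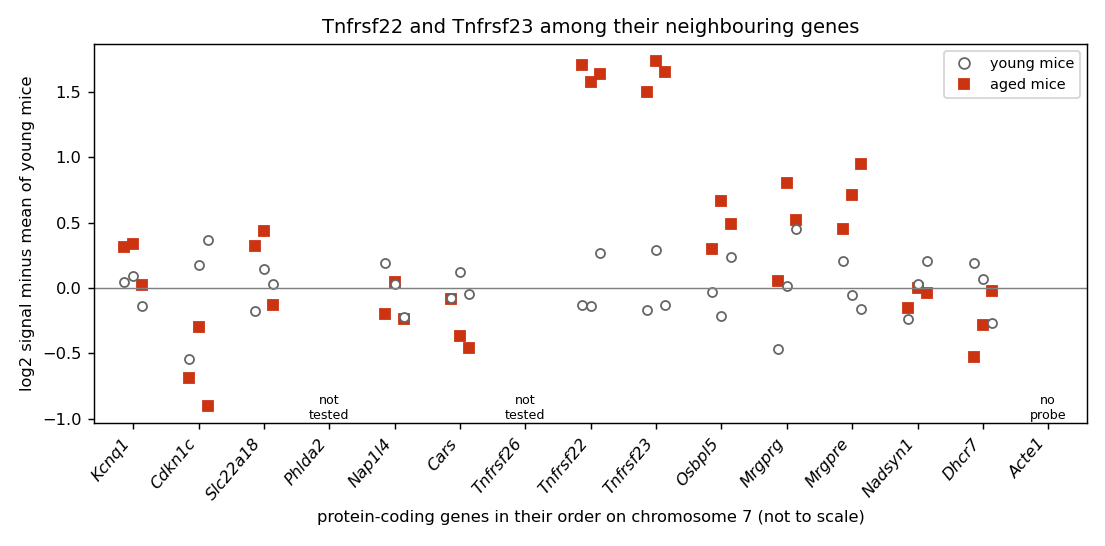
Signal of each mouse minus the mean of the young mice (y axis, log2) for the genes around Tnfrsf22 and Tnfrsf23, in their order on chromosome 7 (x axis, not to scale). Open circles are 3 young and squares 3 aged mice; the aged mice stand more than 1 log2 unit above the young mice at Tnfrsf22 and Tnfrsf23 and at no other gene shown.

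The ligand and the signalling receptor of this axis were measured too. Tnfsf10 itself, TRAIL, read -0.56, -0.49 and 0.05 in young and -1.14, -0.53 and -0.28 in aged mice. The groups overlapped, and the change of -0.32 had a 95% interval from -0.99 to 0.35. Tnfrsf10b, the mouse TRAIL receptor with a death domain, read -0.33, -0.47 and -0.48 in young and -0.15, -0.14 and -0.12 in aged mice. The groups did not overlap, but the change was small at 0.29 and did not pass the threshold (adjusted p = 0.410 in limma). Tnfrsf11b, osteoprotegerin, which can bind TRAIL as well as RANKL, read -4.05, -3.46 and -2.66 in young and -4.02, -3.78 and -3.56 in aged mice, with a change of -0.40 and overlapping groups. Whether the decoys changed by more than these genes was not tested.

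Tnfrsf12a, the TWEAK receptor Fn14, had the largest estimate of all tested members at 1.75, a 3.38-fold higher mean signal. It read 4.73, 4.33 and 4.03 in young mice and 5.21, 5.84 and 7.30 in aged mice. Its young mean of 4.36 was the highest signal of all tested members. Probes of the same gene can differ widely, as those of Tnfrsf9 did in young mice (3.31 and -5.16 on average). Signals of different genes therefore do not rank their transcript levels, and whether Tnfrsf12a was low in young muscle was not tested. For Tnfrsf12a all aged mice were above all young mice, but they spread widely (SD 1.07 against 0.35). The standard error was 0.52 and the adjusted p 0.223 in limma, so this did not pass the threshold. Without aged mouse 3, the highest, the change was 1.16. Within the first row of the slide, which held the 3 young mice and aged mouse 1, it was 0.85.

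Its ligand Tnfsf12 (TWEAK) was read by 2 probes. The brighter read 0.78, 0.78 and 0.76 in young and 0.34, 0.77 and 0.23 in aged mice. Aged mouse 2 was at the level of the young mice, so the groups overlapped (-0.33, adjusted p = 0.463 in limma). The second probe read -0.86, -0.75 and -0.59 in young and -1.31, -1.66 and -1.89 in aged mice. It had a change of -0.88 with no overlap, short of the threshold over all probes (adjusted p = 0.165). Among 12 genes known to rise in denervated fibres, Chrng was above background on aged arrays only and was left out of the counts, a choice made after seeing the data. Of the other 11, 9 were higher at an unadjusted p under 0.05, with no overlap, and 0 passed the threshold. The median change of the 11 was 1.12. Examples are Runx1, a transcription factor (2.74), and Myog, myogenin (2.45). The summed signal of the 12 ranged from 518 to 677 times the 75th percentile in young and from 462 to 662 in aged mice, a sum led by the perinatal myosin Myh8 (9.15 in young and 8.95 in aged mice). Their part in the values of Tnfrsf12a was not tested.

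Ectodysplasin, the product of Eda, exists in isoforms of which one binds Edar and another Eda2r, and is best known for the development of skin appendages. Eda read -0.75, -0.92 and -0.97 in young and -1.83, -1.40 and -1.66 in aged mice. Each aged mouse was below each young mouse, with a change of -0.75 and a standard error of 0.18, but the adjusted p was 0.161 in limma. A second Eda probe was above background on no array, and which isoform either probe reads was not determined. The receptor Eda2r read -3.43, -1.94 and -2.99 in young and -1.71, -2.27 and -1.45 in aged mice. Young mouse 2 was above aged mouse 2, so the groups overlapped (0.98, adjusted p = 0.337 in limma).

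A second Eda2r probe was well above background on 0 young and 3 aged arrays. It read -2.47, -2.99 and -2.51 in aged mice, and was at least 2.63-fold higher than the young mice, counting each young array at the higher of its own signal and the lowest signal well above background. This probe could be kept only through the aged arrays, so it does not support the first, and its adjusted p over all probes was 0.0691 in limma. Edar, the receptor with a death domain, was above background on no array, with signals of -6.68, -5.34 and -5.88 in young and -6.32, -6.13 and -6.51 in aged mice.

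Tnf was below detection in both ages. Its probe, printed in 10 spots, was well above background on none of the 6 arrays, with signals of -6.48, -6.13 and -6.17 in young and -6.08, -6.17 and -6.36 in aged mice. The lowest signal well above background was between -4.45 and -4.08, depending on the array. Of its receptors, Tnfrsf1a, widely expressed and with a death domain, read 2.52, 2.77 and 2.89 in young and 2.92, 2.45 and 3.09 in aged mice. Its change of 0.09 had a 95% interval from -0.43 to 0.61, and its second probe had a change of -0.04. Tnfrsf1b, the receptor without a death domain, read -3.49, -3.21 and -3.21 in young and -2.58, -3.39 and -2.70 in aged mice (0.41, adjusted p = 0.476 in limma). The groups overlapped, since aged mouse 2 was within the young range.

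The lymphotoxin genes Lta and Ltb lie on either side of Tnf on chromosome 17. Ltb read -3.44, -4.19 and -2.06 in young and -2.12, -1.87 and -2.36 in aged mice, with a change of 1.11 (adjusted p = 0.369 in limma). The groups overlapped through young mouse 3, and 1 young array was not above background. Lta had a change of -0.71, with 1 aged array not above background and overlapping groups. Ltbr, the receptor of their heterotrimer, had a change of -0.28. None of these 3 passed the threshold.

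Fas, a receptor that can start apoptosis, read 1.23, 1.77 and 0.69 in young and 1.08, 0.18 and 0.67 in aged mice. The groups overlapped, with a change of -0.59 (95% interval from -1.39 to 0.22), and Fasl, its ligand, was above background on no array. The Fasl signals were -6.66, -6.41 and -6.05 in young and -5.66, -6.34 and -6.54 in aged mice. Tnfrsf25, a death domain receptor for the ligand Tnfsf15, read 0.32, 0.02 and 0.37 in young and -0.58, -0.47 and -1.65 in aged mice. All aged mice were below all young mice, aged mouse 3 by the most, and the change of -1.14 had an adjusted p of 0.222 in limma. Tnfsf15 had a change of 0.03, with a 95% interval from -0.40 to 0.45. Tnfrsf21, a death domain receptor best known from nerve cells, had a change of 0.32 with a wide interval, from -0.94 to 1.59.

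Several receptors and ligands of lymphocytes were measured. Cd27, a receptor of T and B cells, read -0.56, -2.51 and -1.89 in young and -3.19, -2.82 and -2.76 in aged mice. The groups did not overlap, but young mouse 1 stood well above the other young mice. The change was -1.27 (adjusted p = 0.300 in limma), -1.16 at its second probe and -0.72 without young mouse 1. Cd40, a receptor of B cells and macrophages, read -2.72, -3.14 and -2.55 in young and -2.75, -3.64 and -3.41 in aged mice (-0.46, adjusted p = 0.479). Aged mouse 1 was within the young range, and within the first row of the slide the difference was 0.05.

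In the B cell survival system, the ligand Tnfsf13b (BAFF) read -3.07, -2.97 and -3.01 in young and -2.21, -2.89 and -2.70 in aged mice. The 3 aged mice were above the 3 young mice, aged mouse 2 only just, with a change of 0.42 (adjusted p = 0.408 in limma). Tnfrsf13c, its main receptor, was above background on no array (-5.65, -6.23 and -4.37 in young, -3.99, -5.79 and -5.35 in aged mice), nor was Tnfrsf17, another receptor. A further receptor, Tnfrsf13b, had a change of -0.12.

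Of 9 T cell genes 4 could be tested, with a median change of -0.18, and Cd3g, Cd8a and Lck were above background on no array. Cd4, the brightest, stood at 0.37 in young and 0.17 in aged mice, and the summed signal ranged from 3.06 to 4.19 times the 75th percentile in young and from 2.61 to 4.11 in aged mice. Of 7 B cell genes 3 could be tested, with a median of -0.42, a summed signal of 1.04 to 1.21 in young and 0.635 to 1.04 in aged mice, and Ms4a1 and Blk above background on no array. The brightest, Cd22, stood at -0.51 and -0.93. Their part in the values of Cd27, Cd40 and Tnfsf13b was not tested. In whole muscle, fewer cells of a type and less RNA per cell cannot be told apart.

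Tnfrsf11a (RANK), the receptor through which RANKL drives osteoclasts, read 2.93, 2.47 and 1.73 in young and 2.58, 2.82 and 2.82 in aged mice, with a change of 0.36 and overlapping groups. Its ligand Tnfsf11 was above background on no array, with signals of -6.71, -6.38 and -6.35 in young and -6.35, -6.33 and -6.52 in aged mice. The 6 remaining tested members overlapped between the ages. The T cell costimulatory receptors Tnfrsf4 and Tnfrsf9 had changes of 0.40 and -0.10, and Tnfsf9, the ligand of the latter, of -0.31. Tnfrsf14, a receptor of lymphocytes, had a change of 0.63 with an interval from -0.95 to 2.22, and Relt, a TRAF binding receptor, of 0.54. Tnfrsf19, a receptor of embryonic and neural tissue, had a change of -0.26 at its brighter and 0.57 at its dimmer probe. Of the 7 members with several kept probes, the probes ran the same way in 5, and in opposite directions in Tnfrsf19 and Tnfrsf1a. Tnfrsf9, Tnfrsf13b and Tnfrsf14 each had a second probe that was above background on no array.

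The 13 untested members were Tnf, Fasl, Tnfsf4, Tnfsf8, Tnfsf11, Tnfsf14 and Tnfsf18 among the ligands and Edar, Tnfrsf8, Tnfrsf13c, Tnfrsf17, Tnfrsf18 and Tnfrsf26 among the receptors. Most act between lymphocytes and antigen-presenting cells. All but Tnfsf8 were above background on 0 of 6 arrays, and Tnfsf8 was on 1, that of aged mouse 1. For these genes a difference between the ages was not detectable at the sensitivity of the array. Of 15 ligands 7 were in this state, against 6 of 27 receptors. Tnfsf13, a ligand related to BAFF, matched no probe by accession and was not analysed here.

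**Figure D3:**
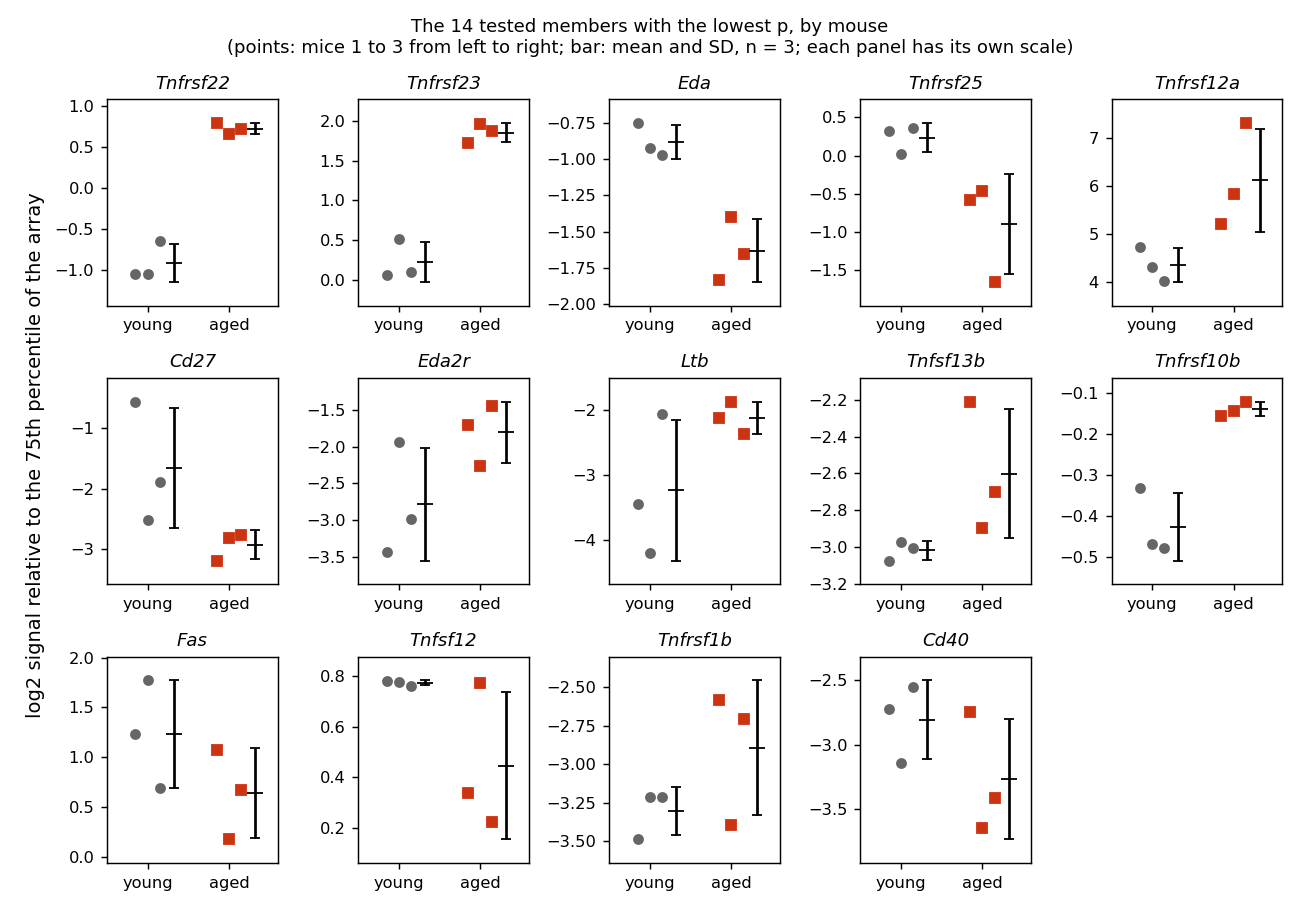
Signal of each mouse (y axis, log2 relative to the 75th percentile of the array) for the 14 tested members with the lowest p, in young and aged mice (x axis; mice 1 to 3 from left to right, with mean and SD, n = 3). The ages stand apart widely for Tnfrsf22 and Tnfrsf23, while the aged mice of Tnfrsf12a spread from 5.21 to 7.30 and those of Tnfrsf25 from -1.65 to -0.47.

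Genes that signal from the receptors, process the ligands or belong to the superfamilies under other symbols were counted in lists. Of 77 genes in 7 lists, 66 could be tested and 0 passed the threshold in limma. At an unadjusted p under 0.05, 12 were higher and 4 lower, beside 5.72% and 9.02% of all genes. In the NF-kB core list 16 of 17 genes were tested, with 6 higher and 2 lower at that p and a median change of 0.22. Nfkb2, which encodes the precursor of the p52 subunit of the alternative pathway, read 0.14 on average in young and 1.88 in aged mice (1.74, adjusted p = 0.0556). Bcl3, a nuclear partner of p50 and p52, stood at -0.41 and 0.78 (1.19, adjusted p = 0.242), and Nfkbie, an inhibitor of NF-kB, at -2.76 and -0.86 (1.89, adjusted p = 0.237). Nfkbie read -2.86, -2.99 and -2.41 in young and -2.26, -0.45 and 0.14 in aged mice. Aged mouse 1, which shared the slide row of the young mice, was the closest to them. Leaving out aged mouse 1 put 4 of the 66 past the threshold (Nfkb2, Nfkbie, Bid and Cxcl10), in a fit that also raised the count over all 20900 genes from 52 to 193. Nfkb2 also passed in 3 other settings.

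In the death signalling list 13 of 15 genes were tested, with a median of -0.08. Bid, which links caspase-8 to the mitochondrion, stood at -2.80 in young and -1.21 in aged mice (1.59, adjusted p = 0.0687), and Birc3, a ubiquitin ligase of TNF receptor complexes induced by NF-kB, at -2.79 and -1.01 (1.78, adjusted p = 0.151). The groups did not overlap for either. All 9 TRAF genes were tested, with a median of 0.22. Traf5 stood at -0.18 and -0.74 with no overlap (-0.56, adjusted p = 0.325), and Traf2 at 3.99 and 4.62 with overlap (0.63, adjusted p = 0.470). Of 18 genes known to be induced by TNF 12 were tested, with a median of 0.81, 4 higher and 1 lower at an unadjusted p under 0.05. Ccl5, a chemokine, stood at -2.70 and -1.35 (1.35, adjusted p = 0.123), and Cxcl10, another, at -3.30 and 0.30 (3.60, adjusted p = 0.198). Cxcl10 read -3.21, -3.26 and -3.41 in young and -2.19, 1.13 and 1.97 in aged mice. Here too aged mouse 1, in the slide row of the young mice, was the closest to them.

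The 10 genes of NF-kB feedback had a median of 0.19, none with an unadjusted p under 0.05. Cyld, which removes ubiquitin chains from TRAF proteins, had a change of 0.38 and Otulin, which removes linear chains, of 0.27, both without overlap. The 5 genes that shed or process ligands had a median of -0.16. They included Furin, a protease that cleaves Eda and BAFF, at -0.38, and Rhbdf2, a partner of the TNF-shedding protease Adam17, at -0.31. Of 3 superfamily genes whose symbols fall outside the rule, Cd40lg and Cd70 were above background on no array and Ngfr, the nerve growth factor receptor, had a change of 0.42.

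**Figure D4:**
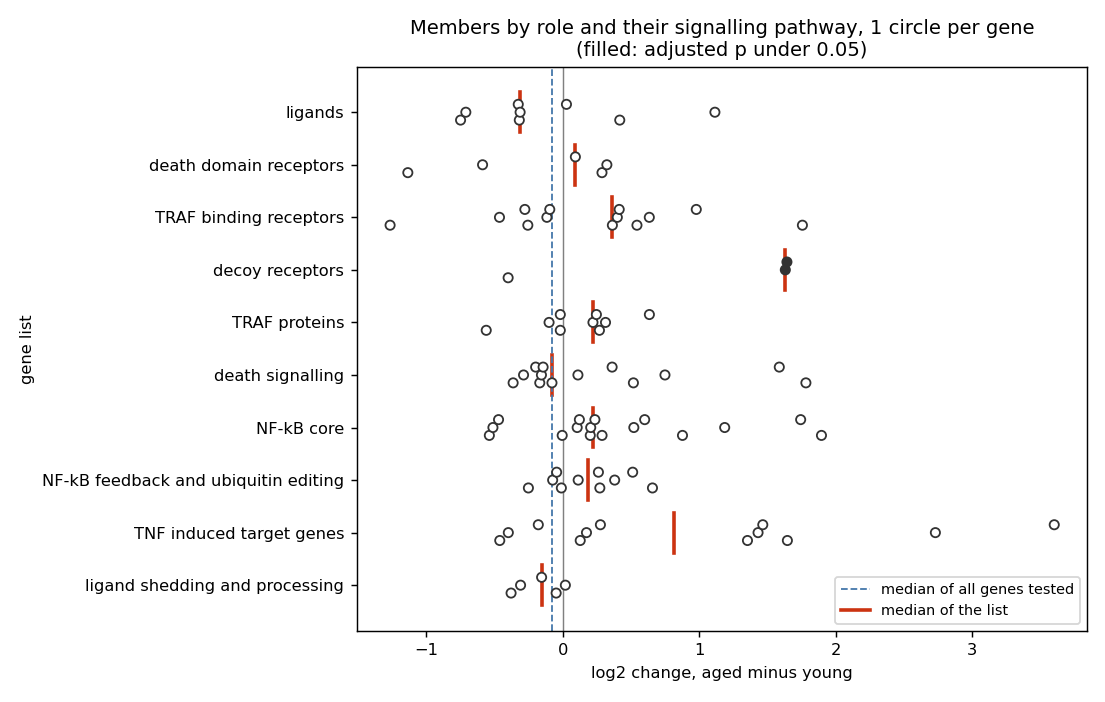
Change of each tested gene (x axis, log2, aged minus young) in the members by role and in 6 lists of signalling and ligand-processing genes (y axis). Each circle is a gene, red bars are list medians and the dashed line the median of all genes tested, -0.08; only Tnfrsf22 and Tnfrsf23 are filled, for an adjusted p under 0.05.

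Markers of other cells were counted beside these genes, and 3 of them, S100a8, S100a9 and Prx, passed the threshold. Of 13 macrophage genes 12 were tested, of which Fcgr1 was above background on aged arrays only. Of the other 11, 9 had a higher mean and 4 were higher at an unadjusted p under 0.05, with a median of 0.62. The summed signal of the 12 overlapped between the ages, at 36.0 to 42.9 in young and 41.5 to 42.9 in aged mice. It was led by Itgam, the brightest (4.35 and 4.07), and Csf1r (3.51 and 3.44), both with a lower mean in aged mice. Cd163 was above background on no array. Of 9 neutrophil genes 5 were tested, of which Retnlg was above background on aged arrays only. S100a8 and S100a9, calcium-binding proteins of neutrophils, rose by 4.79 and 4.68 (limma adjusted p = 0.00605 for both). Camp, an antimicrobial peptide of neutrophil granules, ran the other way without overlap (-0.42, adjusted p = 0.282), Csf3r, the brightest, stood at 7.07 and 7.11, and Ngp was above background on no array. The summed signal of these 5 was 134 to 138 in young and 143 to 167 in aged mice, a sum made up almost wholly by Csf3r. The part of these cells in the values of the NF-kB and chemokine genes was not tested.

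Of 7 fibroblast genes 6 had a lower mean, with a median of -0.24 and a summed signal of 331 to 383 in young and 152 to 289 in aged mice; Dcn, the brightest, stood at 8.20 and 7.33. Of 7 endothelial genes 4 had a lower and 3 a higher mean, with 1 lower at an unadjusted p under 0.05 in limma. Their median was -0.33 and their sums were 27.8 to 32.1 and 19.1 to 26.7, with Vwf, the brightest, at 3.90 and 3.57. Among 7 Schwann cell genes 5 had a lower and 2 a higher mean, and the median was -0.75. The sums were 20.5 to 38.0 and 20.7 to 34.8, and Prx, a myelin protein, fell by 1.31 (limma adjusted p = 0.0418). The 4 tested adipocyte genes of 5 had a median of -0.31 and sums of 44.9 to 48.0 and 30.9 to 49.9, with Cfd at 5.25 and 4.89. Their part in the lower values of Eda, Tnfrsf25 and Fas was not tested.

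All 6 arrays were on 1 slide, the young mice and aged mouse 1 in its first row and aged mice 2 and 3 in its second. Age and row are thus partly confounded. As the second row held aged mice only, the fit with row as a block compared aged mouse 1 with the young mice. Its changes were 1.71 for Tnfrsf22 and 1.50 for Tnfrsf23, and it cannot separate age from row for aged mice 2 and 3.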

How the data were processed

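Gene expression was measured in gastrocnemius muscle of 3 young and 3 aged male mice with 1 Agilent 1-colour array each (Cy3). The files deposited by the authors hold linear intensities from Agilent Feature Extraction (version 9.5 in the submitters' processing notes, 11.0.1.1 in the file headers): the background-subtracted processed signal of each spot and the median spot and background signals. No scaling between arrays had been applied, and the value table of the series holds identical intensities.

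Of 62976 spots per array, 59305 were not controls, and 161 to 212 outlier spots per array were left out. From the log2 signals, averaged over spots of a probe, the array's 75th percentile over its non-control spots was subtracted. Accessions of 28331 of 55681 probes matched a RefSeq symbol (GRCm38.p6), and 27350 kept their identifier. The array was designed on an older build, so only promoters carry coordinates. Probes well above background on at least 3 of 6 arrays were kept, and a gene took its brightest kept probe. The ages were compared by lmFit and eBayes of limma 3.58.1 (R 4.3.3), adjusting by Benjamini-Hochberg over all 20900 genes, at a threshold of 0.05. Simulated data were used to test the fit, with 200 of 20900 genes changed by 1, 2 or 3 log2 units. At the threshold it recovered 0%, 78% and 88% of the changed genes, and called 0, 7 and 11 unchanged genes. A gene short of the threshold may thus still differ by 1 log2 unit. Alternatives were normexp (offset 50, on median signals, as the files used here give no mean signal), quantile normalization, another percentile, other filters, all probes of a gene, the value table, a variance trend, the slide row and the replicate number as blocks, and leaving out each mouse.

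The members, lists and alternatives were chosen with earlier results of these data known. Values per array are given for members past the threshold, the 14 with the lowest p, and fixed ligand and receptor pairs. From each list come the genes past the threshold and the 2 with the lowest p, or the brightest marker. Further neighbours and list genes are examples chosen after their values were seen. Some list genes are not reported here. The number of arrays limits the precision.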

Additional observations from a re-analysis of the deposited data

How the results depend on the processing

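In 16 other settings, the changes of Tnfrsf22 and Tnfrsf23 ranged from 1.21 to 1.77 and from 1.47 to 1.78, with adjusted p from 0.0180 to 0.134 and from 0.0178 to 0.142 in limma. Against 52 genes and 2 members past the threshold, 8 genes and 0 members were past it with no filter on dim probes, 32 genes with a filter on all 6 arrays, and 1 member (Tnfrsf23) with the mean of all kept probes. With the slide row as a block no member passed. Leaving out each mouse gave 1 gene (without aged mouse 3) to 193 genes (without aged mouse 1), 0 to 2 members and 0 to 4 pathway genes. Pathway genes past the threshold numbered 1 (Nfkb2) with normexp, the detected-probe percentile or a variance trend. Of the genes past the threshold, 40 of 52 were higher, against 39 of 62 with normexp, 22 of 43 with the row as a block (12 of them among the 52) and 100 of 193 without aged mouse 1. The median change of the members was -0.0192 after quantile normalization, 0.0791 with the detected-probe percentile and 0.0625 with no filter, and -0.0190 to 0.0323 without each mouse. Cd40 reversed to 0.0546 with the row as a block, and Tnfrsf1a ranged from -0.0422 to 0.277 without each mouse. Of the named members' values in these settings 267 kept direction and side of the threshold, 17 lost the threshold (all of Tnfrsf22 or Tnfrsf23) and 3 reversed, where the cause was not tested.

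The shared replicate numbers did not pair the mice: deviations of mice with the same number correlated at -0.06, -0.27 and 0.03. A replicate block fit gave 5 genes and 0 members past the threshold, with adjusted p of 0.120 for Tnfrsf22 and 0.113 for Tnfrsf23.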
